A study of Mus musculus with 8 samples.

Results

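The genes described here are 30 genes of cholesterol synthesis, its control, cholesterol trafficking and cholesterol efflux, chosen by symbol from the 24630 genes of the table. All 30 were found. They comprise 18 synthesis enzymes, 5 genes that control sterol-dependent transcription, 3 genes of intracellular trafficking and 4 genes of efflux and oxysterol sensing. Messenger RNA was measured in muscle stem cells, which rebuild skeletal muscle after injury, of old (22 months) and young (4 months) male C57BL/6 mice, 4 animals each, 1 library per animal, and the labels name no genetic change or treatment in either group. The cells had been sorted from limb muscle as CD45-, CD31-, Sca1- and VCAM+ and were not cultured, so they stand for stem cells after tissue dissociation and sorting.

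Cholesterol is built from acetyl-CoA. The mevalonate steps yield isoprenoid units, which are joined to squalene, closed to lanosterol and trimmed to cholesterol in the endoplasmic reticulum. When sterols are scarce, Scap escorts the transcription factor SREBP2 (gene Srebf2) to the Golgi, where proteases release it to switch on the synthesis genes. Insig1 and Insig2 hold Scap back when sterols are plentiful. Cells that hold too much cholesterol make oxysterols, which activate the LXR receptors (Nr1h2, Nr1h3) and through them the exporters Abca1 and Abcg1.

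Sequencing depth differed between the ages. The old libraries held 20.1 to 24.9 M reads in genes and the young libraries 1.91 to 6.56 M, so depth and age cannot be told apart. The deposited RPKM, reads scaled by gene length and by library size, used library sizes that stood at 0.678 to 0.849 times the reads in old and at 1.14 to 1.64 times the reads in young libraries. On that scale the median gene was 0.64 higher (log2) in old animals, and with values divided by library totals it was -0.01. Values below are RPKM on library totals and compare shares of reads. A fold change is log2(RPKM + 1), old minus young, with its standard error, which understates the change of low genes. After ± stands the SE of a fold change or the SD of a mean RPKM over 4 animals. The test was limma with Benjamini-Hochberg adjustment over all 5703 genes whose deposited RPKM averaged 5 or more, and a gene is said to have risen or fallen at an adjusted p under 0.05. Olfactory and vomeronasal receptor genes, which are silent in muscle, averaged 0.0163 to 0.0360 RPKM in old libraries, against 0.202 to 0.983 RPKM in young libraries, a low-level signal that touches the weakest of the genes below. Fewer cells of a type and less RNA per cell cannot be told apart in these bulk samples.

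Defining markers of muscle stem cells were present in all 8 libraries. Pax7, their defining transcription factor, had 8.22 to 13.4 RPKM in old libraries, against 14.7 to 22.6 RPKM in young libraries and itself fell by 0.68 ± 0.17 (limma, adjusted p = 0.0166). Myf5 had 169 to 223 RPKM in old libraries, against 121 to 176 RPKM in young libraries. The 13 muscle stem cell markers summed to 11349 to 14746 CPM (reads scaled by library size alone) in old and 11797 to 14683 CPM in young libraries. Under that sum, single markers lay apart in both directions, which was not tested for its part in the results below. Calcr (14.4 to 21.3 RPKM in old, 44.0 to 62.5 RPKM in young libraries), Cdh15 (35.3 to 53.1 in old, 72.0 to 89.2 in young), Fgfr4 (38.7 to 47.1 in old, 75.7 to 81.4 in young), Chodl (169 to 264 in old, 282 to 503 in young) and Pax7 lay lower in every old library. Myod1, a factor of activated cells, lay higher in every old library (624 to 941 RPKM in old, 412 to 534 RPKM in young). Markers of other cells were present too. Summed tenocyte markers were at 1662 to 5066 CPM in old and 639 to 999.6 in young libraries. Among these, Tnmd, Mkx, Thbs4, Fmod and Comp lay higher in every old library. The weak Scx (0.154 to 0.395 RPKM in old, 0 to 0.806 in young) and Col11a1 (0.404 to 1.49 in old, 0.730 to 3.04 in young) overlapped. Summed endothelial markers were at 194 to 468 CPM in old and 490 to 617 in young libraries. Summed lymphocyte markers were at 3.46 to 14.0 CPM in old and 23.2 to 41.8 CPM in young libraries. In young libraries Cd3e (0.182 to 1.54 RPKM) and Cd3d (0.409 to 1.15) were of the order of the silent receptor genes. Cd79a (2.04 to 3.59 RPKM) stood above them. The part of the silent receptor signal in the lymphocyte sum was not tested. Summed fibroblast markers overlapped, at 4250 to 7375 CPM in old and 6251 to 7954 CPM in young libraries. The collagens Col1a1 (7.64 to 43.0 RPKM in old, 49.1 to 92.6 RPKM in young) and Col3a1 (22.6 to 34.9 in old, 82.1 to 119 in young) did not. Every other fibroblast marker overlapped between the ages, and Dcn reached higher in old libraries (476 to 1067 RPKM in old, 392 to 524 in young). Macrophages, which use the LXR pathway heavily, are covered by 13 macrophage and leukocyte markers. These summed to 72.5 to 172 CPM in old and 98.7 to 179 in young libraries. Under that overlapping sum, Ptprc (0.0656 to 0.332 RPKM in old, 0.831 to 2.94 in young) lay lower in every old library. So did Mrc1 (0.0505 to 0.399 in old, 0.503 to 2.30 in young) and Fcgr1 (0.0155 to 0.173 in old, 0.272 to 1.15 in young). The ranges of the other markers of this list overlapped. Ptprc, Mrc1 and Fcgr1 were weak, and the part of the silent receptor signal in them was not tested. The part of these differences in the results below was not tested.

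Transcripts of 7 cholesterol synthesis enzymes took a smaller share of reads in old muscle stem cells. The RPKM of all 18 enzymes summed to 229 ± 31.7 in old mice, against 342 ± 91.5 in young mice. Young library 3 stood at 477, against 277 to 316 in the other young libraries and 197 to 272 in the old libraries. Of the 18 enzymes, 12 had a mean of at least 5 RPKM, and 7 of these fell, 0 rose and 5 were not called. Over all tested genes 12.5% fell and 12.3% rose. The 12 genes of control, trafficking and efflux included 7 tested ones, of which 0 were called (at an unadjusted p under 0.05, 0 higher and 1 lower by limma and 0 higher and 2 lower by limma-voom). The median log2 fold change of the 12 enzymes was -0.71, against -0.01 for all tested genes. All 4 old libraries lay below all 4 young libraries for those 7 enzymes, an arrangement found in 13.3% of tested genes, and for no enzyme did all old libraries lie above, as they did in 13.8% of tested genes. At an unadjusted p under 0.05 the count of higher enzymes was also 0, with limma and with limma-voom on recovered reads. On the deposited scaling the 7 enzymes had log2 fold changes from -0.45 to -0.05 and none was called, while 6 of the 30 genes (Acat2, Ebp, Srebf1, Insig2, Npc1 and Nr1h2) were called higher. There 68.1% of all tested genes were called higher and 1.12% lower.

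**Figure D1:**
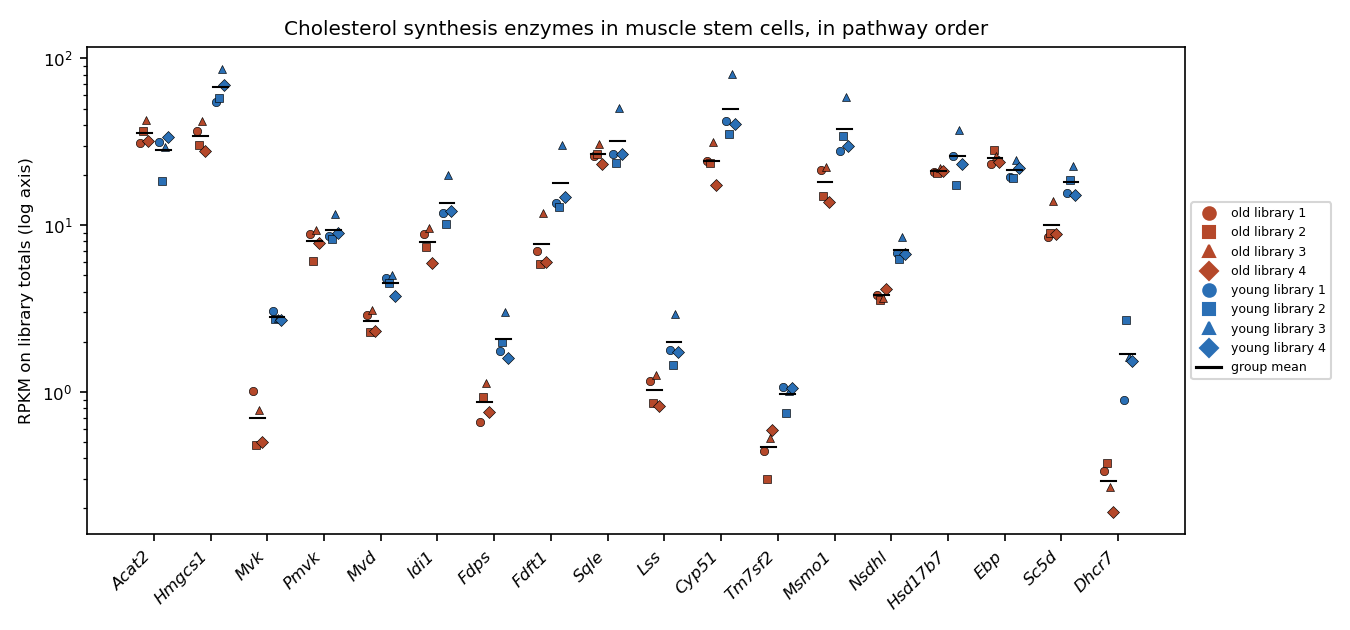
Each point is 1 library, with RPKM on library totals on a log axis and the 18 synthesis enzymes in pathway order, old to the left of young for each gene, and black lines mark group means. Old libraries all sit below young ones for 13 of 18 enzymes, among them Hmgcs1 (34.1 against 67.2 RPKM on average). The ages overlap for Acat2, Pmvk, Sqle, Hsd17b7 and Ebp. The triangles of young library 3 stand highest for many enzymes.

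HMG-CoA, the precursor of mevalonate, is made by Hmgcs1 (chromosome 13, 119690379 to 119708260, plus strand, GRCm38). Hmgcs1 had 36.5, 30.3, 41.9 and 27.9 RPKM in the 4 old libraries and 54.8, 58.2, 86.3 and 69.6 RPKM in the 4 young libraries. The groups did not overlap, and the lowest young library stood above the highest old one. Hmgcs1 fell by 0.95 ± 0.17 (SE) on the log2 scale (limma, adjusted p = 0.00349). It was called in each of the 8 fits that left out 1 library, with adjusted p-values from 0.00334 to 0.0138.

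Further along the mevalonate branch, Idi1, which interconverts the isoprenoid units, had 8.84, 7.41, 9.57 and 5.91 RPKM in old libraries, against 11.9, 10.1, 19.9 and 12.2 RPKM in young libraries. The groups were separate but close, and young library 3 stood well above the other young libraries. Idi1 fell by 0.68 ± 0.20 (limma, adjusted p = 0.0302), a call lost in 5 of the 8 fits that dropped a library, where the adjusted p reached 0.0889 without old library 4 and was 0.0697 without young library 3. Its call was also lost once reads were thinned to equal totals (adjusted p = 0.0518). Pmvk, the second of the kinases of the branch, had 8.04 ± 1.42 RPKM in old mice, against 9.40 ± 1.54 RPKM in young mice (mean ± SD over 4 animals per age) and was not called (-0.21, 95% interval -0.54 to 0.13). Acat2, the cytosolic thiolase that supplies acetoacetyl-CoA, had 35.6 ± 5.11 RPKM in old mice, against 28.4 ± 6.77 RPKM in young mice and was not called either (0.34, 95% interval -0.05 to 0.74). Intervals here are those of the single gene, without adjustment.

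The other 3 enzymes of the branch were weak, with means from 1 to under 5 RPKM, and were tested in a wider fit of 11096 genes averaging 1 RPKM or more, where 20.5% fell and 7.11% rose. Mvk, the first kinase of the branch, had 1.01, 0.481, 0.784 and 0.503 RPKM in old libraries, against 3.05, 2.74, 2.79 and 2.69 RPKM in young libraries. These values rest on 28 to 54 reads in old and on 14 to 49 reads in young libraries. Mvk fell by 1.18 ± 0.17 (limma, adjusted p = 0.0022), and by 0.80 on the deposited scaling (adjusted p = 0.00233), where 5.34% of the genes of the wider fit fell and 42.1% rose. The decarboxylase Mvd fell by 0.60 ± 0.13 (limma, adjusted p = 0.0108) and the farnesyl diphosphate synthase Fdps by 0.71 ± 0.20 (adjusted p = 0.0238). Mvd lost its call without the 2 shallowest young libraries (adjusted p = 0.0673), and Fdps with reads thinned (0.138) and without old library 1, 2 or 4 (0.0554 to 0.0617). On the deposited scaling neither was called, with -0.06 for Mvd (adjusted p = 0.74) and -0.32 for Fdps (adjusted p = 0.188). Among all 5393 genes at this level 28.4% fell and 1.39% rose, and 33.5% had every old library below every young one. Silent receptor genes averaged 0.202 to 0.983 RPKM in young libraries, and the part of that signal in Mvk, Mvd and Fdps was not tested.

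Fdft1, squalene synthase, commits isoprenoids to sterols. It had 7.04, 5.84, 11.8 and 6.03 RPKM in old libraries, against 13.6, 12.8, 30.4 and 14.7 RPKM in young libraries, with the third library the highest in both groups. Fdft1 fell by 1.08 ± 0.27 (limma, adjusted p = 0.0146), and by 0.81 without young library 3 (adjusted p = 0.0275). In GENCODE M21 its exons share 774 bases with Ctsb on the other strand, and Ctsb averaged 246 ± 60.9 RPKM in old mice, against 237 ± 65.7 RPKM in young mice and was not called (limma, adjusted p = 0.844). Reads were from a kit that does not mark strand, and how the authors assigned reads in the shared stretch is not given in the sources used here. Shared exon bases were also found for Fdps with Gm43738 (1124 bases), Scap with 5830462I19Rik (985), Npc1 with Rmc1 (511) and Gm15956 (90). The same held for Lss with 4930483K19Rik (381), Srebf1 with Rai1 (109) and Mir6922 (66) and Nr1h3 with Gm13783 (34). Hmgcs1 shared bases with Gm48342 (557), Tm7sf2 with Vps51 (532), Idi1 with Gm48574 (323) and Cyp51 with Akap9 (166). The counts of these genes are uncertain to that extent. On the deposited scale 4930483K19Rik averaged 0.106 RPKM and Mir6922 0.00113 RPKM, and Rai1, Vps51, Akap9 and Rmc1 averaged 1.25 to 5.25 RPKM. No level was available for Gm43738, 5830462I19Rik, Gm15956, Gm13783, Gm48342 and Gm48574.

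Sqle, squalene epoxidase, a rate-controlling step of the sterol branch, had 25.8, 26.8, 30.6 and 23.2 RPKM in old libraries, against 26.6, 23.7, 50.4 and 26.6 RPKM in young libraries. The groups overlapped and young library 3 alone was high. Sqle was not called (-0.19 ± 0.21, 95% interval -0.65 to 0.26, limma, adjusted p = 0.531), and without young library 3 its fold change was 0.05. Lss, which closes the sterol rings, was weak, with 1.03 ± 0.218 RPKM in old mice, against 1.98 ± 0.656 RPKM in young mice, and was not called in the wider fit (-0.54 ± 0.20, adjusted p = 0.0632). Lss was called in 5 alternatives, with its lowest adjusted p of 0.00888 with limma-voom, and also with no filter (0.0459).

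The methyl groups of lanosterol are removed by 4 enzymes with a tested level, of which 3 fell. Cyp51, the lanosterol 14-alpha-demethylase (chromosome 5, 4081145 to 4104746, minus strand), had 24.4, 23.5, 31.7 and 17.4 RPKM in old libraries, against 42.1, 35.2, 80.6 and 40.7 RPKM in young libraries. Cyp51 fell by 0.96 ± 0.25 (limma, adjusted p = 0.0161), with an adjusted p of 0.0528 without old library 4. Msmo1, which oxidises the next methyl groups, had 21.4, 15.0, 22.4 and 13.8 RPKM in old libraries, against 27.8, 34.3, 58.7 and 30.04 RPKM in young libraries. Msmo1 fell by 0.98 ± 0.23 (adjusted p = 0.0118) and was called with each library left out in turn. Nsdhl, the dehydrogenase of the same complex, had 3.79, 3.55, 3.68 and 4.13 RPKM in old libraries, against 6.77, 6.23, 8.50 and 6.72 RPKM in young libraries. Its libraries were tight within each age, and Nsdhl fell by 0.74 ± 0.14 (adjusted p = 0.00457). Hsd17b7, the ketoreductase that completes each round, had 21.1 ± 0.628 RPKM in old mice, against 26.0 ± 8.38 RPKM in young mice and was not called (-0.23, 95% interval -0.64 to 0.18).

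The sterol ring is finished by Ebp, Sc5d and Dhcr7. Sc5d, the sterol C5 desaturase, had 8.47, 9.01, 14.0 and 8.82 RPKM in old libraries, against 15.6, 18.7, 22.7 and 15.2 RPKM in young libraries, without overlap. Sc5d fell by 0.79 ± 0.18 (limma, adjusted p = 0.00912), and its call was lost once reads were thinned to equal totals (adjusted p = 0.0641). Ebp, the sterol isomerase, had 23.2, 28.2, 25.9 and 23.8 RPKM in old libraries, against 19.4, 19.2, 24.8 and 22.1 RPKM in young libraries. The Ebp groups overlapped, with a fold change of 0.23 ± 0.12 (95% interval -0.03 to 0.50, adjusted p = 0.178). The reductases Dhcr7 and Tm7sf2 averaged under 1 deposited RPKM and were tested in neither fit. With no filter, 40.2% of 23461 genes fell and 4.05% rose, and both were called lower, Dhcr7 by limma at an adjusted p of 0.011 and Tm7sf2 at 0.0404. Dhcr7 had 0.190 to 0.373 RPKM in old libraries, against 0.893 to 2.70 RPKM in young libraries, and Tm7sf2 had 0.3002 to 0.593 RPKM in old libraries, against 0.751 to 1.07 RPKM in young libraries. These levels are of the order of the silent receptor genes in the young libraries, and the highest Dhcr7 value was in young library 2, where those genes also stood highest (0.983 RPKM). Dhcr7 was next highest in young library 3 (1.63 RPKM), where the receptor genes were lowest among the young (0.202 RPKM), and lowest in young library 1 (0.893 RPKM), where they were at 0.402 RPKM. The part of that signal in Dhcr7 and Tm7sf2 was not tested.

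Promoters were taken from RefSeq for GRCm38.p6 as the 250 bases before the start of a gene, and such windows were used for 24 of the 30 genes. They are shown for 6 of the 7 enzymes that fell, because SREBP2 acts at such promoters together with NF-Y, which binds CCAAT. Capitals mark CCAAT, or its complement ATTGG, and the single match to the sterol regulatory element TCACNCCAC, which lies at position -137 of Hmgcs1 as TCACCCCAC. Both strands were searched.
Hmgcs1 (chr13:119690101-119690350, plus strand): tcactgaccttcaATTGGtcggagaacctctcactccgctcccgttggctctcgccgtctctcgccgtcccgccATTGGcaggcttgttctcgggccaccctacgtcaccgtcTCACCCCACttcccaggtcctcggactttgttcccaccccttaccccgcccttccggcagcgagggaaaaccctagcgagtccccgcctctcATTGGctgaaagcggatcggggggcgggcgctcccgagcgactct
Idi1 (chr13:8885356-8885605, plus strand): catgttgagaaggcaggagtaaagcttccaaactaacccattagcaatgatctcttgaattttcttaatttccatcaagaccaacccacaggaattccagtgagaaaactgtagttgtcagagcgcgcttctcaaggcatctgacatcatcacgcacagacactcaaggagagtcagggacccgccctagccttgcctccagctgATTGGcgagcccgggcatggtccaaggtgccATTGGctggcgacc
Cyp51 (chr5:4104698-4104947, minus strand): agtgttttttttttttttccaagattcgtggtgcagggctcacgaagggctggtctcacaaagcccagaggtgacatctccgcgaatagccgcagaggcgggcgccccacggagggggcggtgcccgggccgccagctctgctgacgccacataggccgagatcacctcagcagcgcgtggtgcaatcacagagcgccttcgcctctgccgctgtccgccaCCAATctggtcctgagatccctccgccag
Msmo1 (chr8:64733579-64733828, minus strand): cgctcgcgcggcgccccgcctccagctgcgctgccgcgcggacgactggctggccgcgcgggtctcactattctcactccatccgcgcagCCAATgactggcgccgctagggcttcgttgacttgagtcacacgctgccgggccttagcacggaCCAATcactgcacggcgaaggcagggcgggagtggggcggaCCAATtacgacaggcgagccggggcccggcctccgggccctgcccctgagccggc
Nsdhl (chrX:72918271-72918520, plus strand): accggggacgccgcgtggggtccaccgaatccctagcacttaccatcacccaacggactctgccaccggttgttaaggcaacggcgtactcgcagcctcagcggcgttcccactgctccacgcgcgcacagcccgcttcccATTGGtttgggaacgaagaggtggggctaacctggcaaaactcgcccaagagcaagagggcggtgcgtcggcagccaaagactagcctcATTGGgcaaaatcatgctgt
Sc5d (chr9:42264301-42264550, minus strand): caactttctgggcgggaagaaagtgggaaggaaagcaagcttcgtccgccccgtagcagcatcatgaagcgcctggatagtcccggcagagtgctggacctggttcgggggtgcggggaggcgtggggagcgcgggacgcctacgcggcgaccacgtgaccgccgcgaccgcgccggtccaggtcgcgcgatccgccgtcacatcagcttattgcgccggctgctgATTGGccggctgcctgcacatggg

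CCAAT was found in 14 of 15 synthesis enzymes with a window, against 40.6% of the 4467 tested genes with one. Over all 27025 genes with a window the share was 37.5%, and 5 of 9 genes of control, trafficking and efflux held it. The 15 enzymes include Mvk, Mvd, Lss, Tm7sf2 and Dhcr7, which were not in the main fit. A gene counted when any of its windows held a match, as Dhcr7 did in window 3 alone. Hmgcs1 and Msmo1 each held 3 copies, Idi1 and Nsdhl 2 each, and Cyp51 and Sc5d 1 each. The GC box GGGCGG was found in 14 of 15 synthesis enzymes and in 66.2% of tested genes. The strict element TCACNCCAC was rare, in 1 of 15 synthesis enzymes and in 1.25% of tested genes. No CCAAT was found for Acat2, and Pmvk, Ebp and Hsd17b7, which were not called, held 1, 2 and 3 copies. A match is a description of letters and not of binding.

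Within each age, library 3 stood high for many synthesis enzymes. Among the 4 old libraries, library 3 was the highest for 13 of the 18 enzymes, against 21.1% of all tested genes. Its value was 1.28 times the mean of the other 3 old libraries in the median tested enzyme, and 1.88 times for Fdft1 and 1.60 times for Sc5d. Among the 4 young libraries, library 3 was the highest for 14 of the 18 enzymes, while it was the highest young library for 27.5% of all tested genes. Its value was 1.55 times the mean of the other 3 young libraries in the median tested enzyme and 1.00 times in the median tested gene. The ratio reached 2.21 for Fdft1, 2.05 for Cyp51, 1.96 for Sqle and 1.91 for Msmo1. For the 12 genes of control, trafficking and efflux the median ratios were 1.08 in old library 3 and 1.18 in young library 3. Old library 3 was the highest old library for 4 of these 12 genes, and young library 3 the highest young library for 6, with ratios from 1.00 to 1.29. Without young library 3, 5 of 11 tested enzymes fell and 0 rose, against 469 of all 5746 tested genes that fell and 523 that rose. The median log2 fold change of the 11 enzymes was then -0.49. At an unadjusted p under 0.05 by limma, 1 of them was higher. Idi1 was no longer called, and Nsdhl was no longer tested, because its mean dropped below the minimum.

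**Figure D2:**
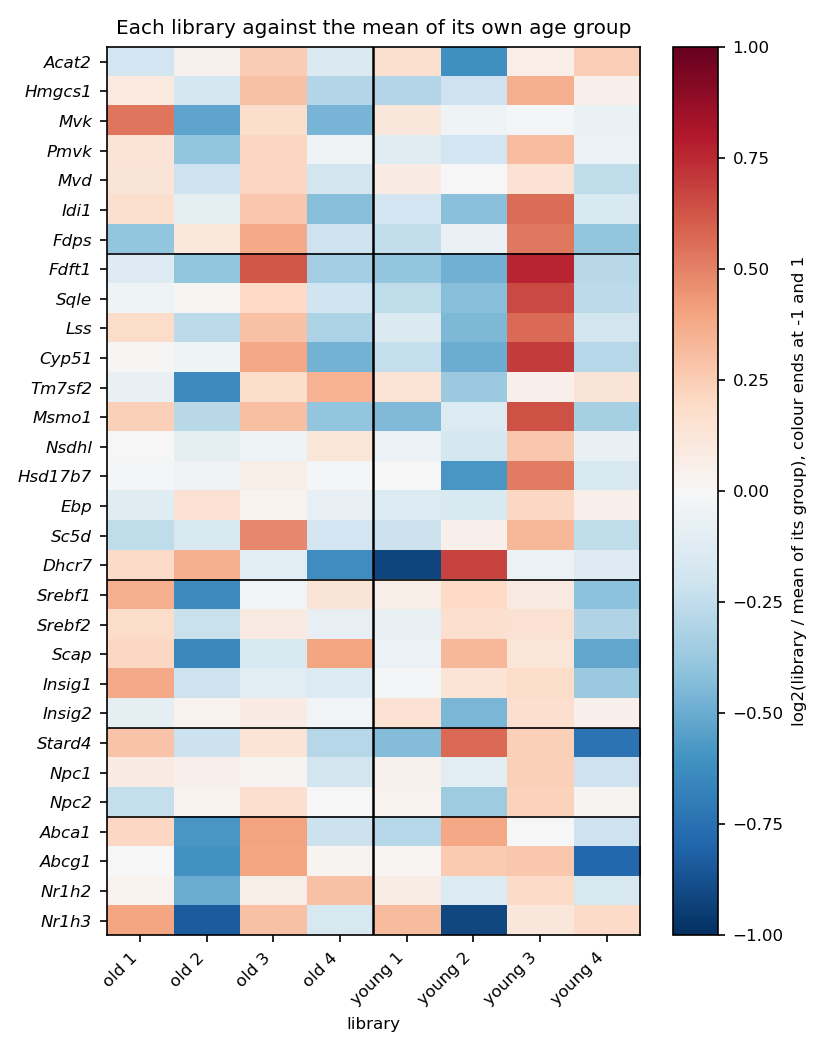
Colour gives log2 of each library's RPKM over the mean of its own age group, for all 30 genes in order of their role, with old libraries to the left of the vertical line and young libraries to the right. Synthesis enzymes are high together in old library 3 and young library 3, with young library 3 highest for 14 of 18 enzymes, and for the 12 genes of control, trafficking and efflux young library 3 is above the mean of the other young libraries throughout, by smaller ratios of 1.00 to 1.29.

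Genes that control SREBP gave no call. None of the 4 with a mean of at least 5 RPKM was called by limma, 1 was lower at an unadjusted p under 0.05 with limma and 1 with limma-voom, and their median log2 fold change was -0.20. Srebf2, the transcription factor of the synthesis genes, had 31.6, 23.9, 29.7 and 26.3 RPKM in old libraries, against 32.3, 38.3, 37.9 and 27.6 RPKM in young libraries. The groups overlapped, and the fold change was -0.27 ± 0.14 (95% interval -0.58 to 0.03, adjusted p = 0.17). Srebf1, whose products mainly serve fatty acid synthesis, had 6.36 ± 1.71 RPKM in old mice, against 6.97 ± 1.197 RPKM in young mice and was not called (-0.14, 95% interval -0.56 to 0.29), and on the deposited scaling it was called higher (0.46, adjusted p = 0.0293). Scap, the escort, was weak, averaging 1.86 ± 0.553 RPKM in old mice, against 2.34 ± 0.556 RPKM in young mice and was not called in the wider fit (-0.23 ± 0.19, adjusted p = 0.389).

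The pair of Insig retention proteins stood at very different levels. Insig2 was the strongest of the 30 genes, with 109, 119, 123 and 114 RPKM in old libraries, against 113, 73.7, 114 and 105 RPKM in young libraries. Only young library 2 stood apart, and Insig2 was not called (0.22 ± 0.15, 95% interval -0.10 to 0.54, limma, adjusted p = 0.298). Insig1, itself a target of SREBP, had 13.1, 8.75, 9.36 and 9.15 RPKM in old libraries, against 13.4, 14.9, 15.3 and 10.5 RPKM in young libraries. Old library 1 was high among the old and young library 4 low among the young. Insig1 was not called (-0.39 ± 0.16, adjusted p = 0.0893), and it was called without old library 1 (-0.51, adjusted p = 0.0329) or without young library 4 (-0.50, adjusted p = 0.045).

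Of the trafficking genes, Npc1 and Npc2 carry cholesterol out of the lysosome and Stard4 moves it between membranes. Npc1 had 7.66 ± 0.615 RPKM in old mice, against 6.73 ± 0.913 RPKM in young mice and was not called (0.17, 95% interval -0.12 to 0.46). Npc2 had 29.6 ± 3.39 RPKM in old mice, against 36.8 ± 6.00 RPKM in young mice and was not called (-0.30, 95% interval -0.61 to 0.02), but it was called without young library 2 (-0.41, adjusted p = 0.0347). Stard4, an SREBP target as well, had 2.41, 1.71, 2.18 and 1.63 RPKM in old libraries, against 3.19, 6.37, 5.08 and 2.58 RPKM in young libraries. It fell by 0.78 ± 0.22 in the wider fit (limma, adjusted p = 0.0265), in which 20.5% of genes fell. The call was lost in 4 of 8 fits that dropped a library (old library 2 or 4, young library 2 or 3; adjusted p 0.0561 to 0.0772) and also with reads thinned (0.0854) or without the 2 shallowest young libraries (0.111). The highest Stard4 value was in young library 2, where the silent receptor genes stood highest (0.983 RPKM), and the next highest (5.08 RPKM) in young library 3, where they stood lowest among the young (0.202 RPKM). The part of that signal in Stard4 was not tested.

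Efflux genes showed no call. Nr1h2, the widely expressed LXR beta, had 23.6, 16.3, 24.0 and 28.3 RPKM in old libraries, against 26.7, 23.1, 28.9 and 22.6 RPKM in young libraries, with a fold change of -0.15 ± 0.16 (95% interval -0.50 to 0.21, limma, adjusted p = 0.531). On the deposited scaling Nr1h2 was called higher (0.52, adjusted p = 0.0304). Nr1h3, LXR alpha, had 3.44 ± 1.19 RPKM in old mice, against 3.92 ± 1.25 RPKM in young mice (mean ± SD over 4 animals per age), with the second library lowest in both groups, and was not called (-0.15 ± 0.25, adjusted p = 0.676). The exporter Abca1, which loads lipid-poor apolipoproteins, had 3.42, 1.98, 3.91 and 2.56 RPKM in old libraries, against 2.94, 4.69, 3.59 and 3.10 RPKM in young libraries. The groups overlapped, and Abca1 was not called in the wider fit (-0.22 ± 0.19, 95% interval -0.63 to 0.19, adjusted p = 0.394). The exporter Abcg1, which hands cholesterol to mature lipoproteins, had 1.11 ± 0.299 RPKM in old mice, against 1.71 ± 0.503 RPKM in young mice and was not called (-0.35 ± 0.21, 95% interval -0.81 to 0.10). Abcg1 rests on 74 to 136 reads in old libraries and on 16 to 55 reads in young ones.

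**Figure D3:**
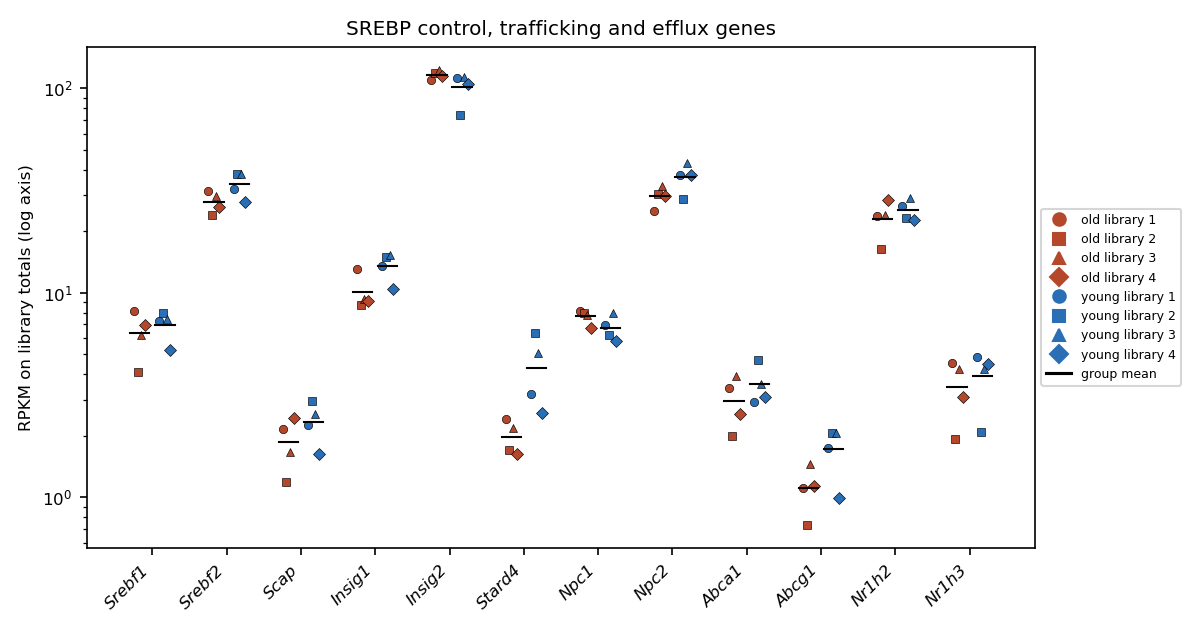
Each point is 1 library, with RPKM on library totals on a log axis for the 12 genes of SREBP control, trafficking and efflux, old to the left of young, and black lines mark group means. The groups overlap for 11 of the 12 genes, and Stard4 is the exception.

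In the wider fit 10 of 16 synthesis enzymes fell, against 20.5% of all 11096 genes, while 0 of the 4 efflux genes and 0 of the 5 control genes were called (0 and 1 lower, and 0 higher, at an unadjusted p under 0.05 by limma). Whether enzymes and efflux genes differ in their age difference was not tested as such, and the intervals of Abca1 and Abcg1 include decreases as large as 0.63 and 0.81. Of the 28 genes in the wider fit, 11 of 16 enzymes and 1 of 12 other genes had every old library below every young one, as did 23.1% of all genes of that fit. None of the 28 had every old library above, against 7.87% of those genes.

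**Figure D4:**
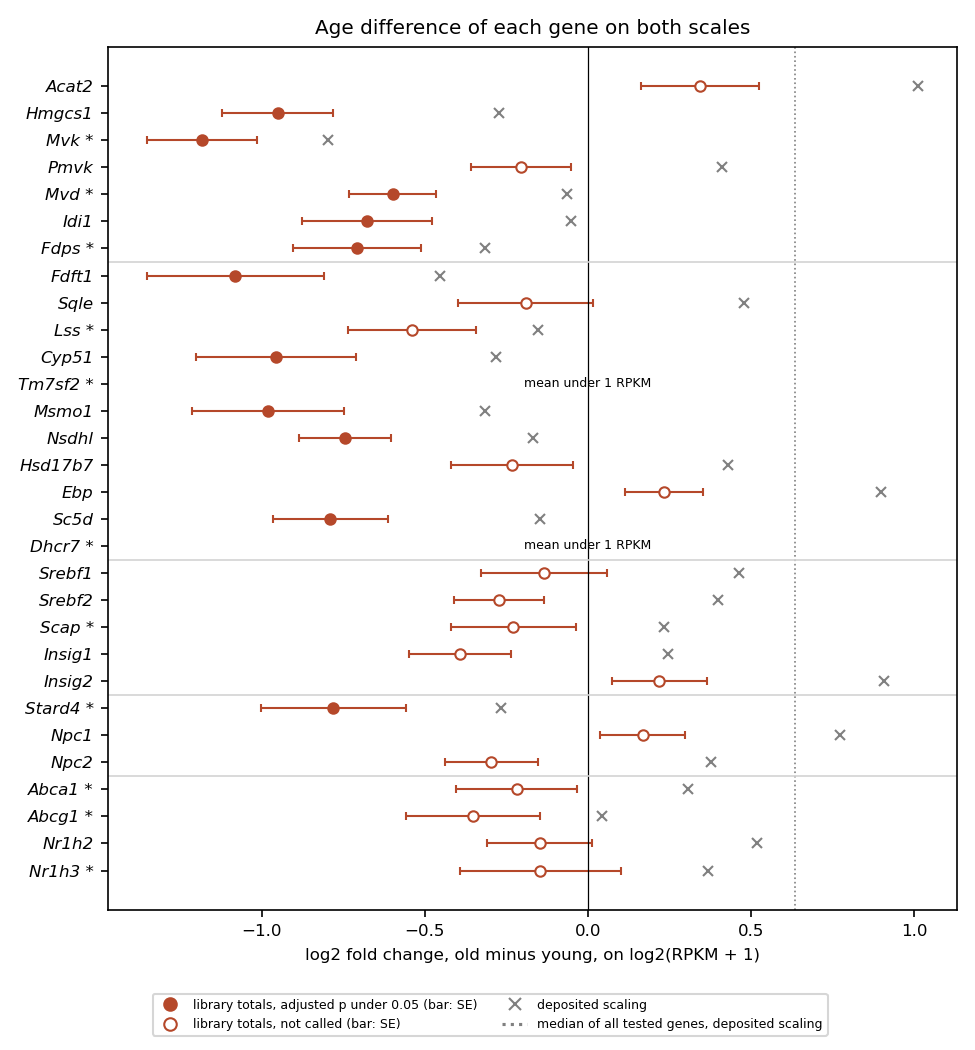
Circles give the log2 fold change (old minus young) on library totals with its standard error, filled at an adjusted p under 0.05, crosses give the deposited scaling, and the dotted line is the median of all tested genes on that scaling (0.64). An asterisk marks genes with a mean under 5 RPKM, which come from the wider fit. The median of that fit on the deposited scaling was 0.36 and is not drawn. Filled circles are nearly all synthesis enzymes, and crosses lie to the right of the circles for every gene shown.

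The counts of the lists next to the pathway stand beside 12.3% of all tested genes that rose and 12.5% that fell. Of 10 tested genes for the processing of SREBP and sterol-dependent degradation, 0 rose and 1 fell, the site-1 protease Mbtps1, which makes the first cut that releases SREBP. Mbtps1 had 14.9 ± 0.791 RPKM in old mice, against 20.2 ± 2.64 RPKM in young mice and a fold change of -0.40 ± 0.12 (limma, adjusted p = 0.0303), a call lost with scaling by TMM over the tested genes (0.0921) and in 6 of 8 fits that dropped a library. Of 11 genes of fatty acid synthesis and desaturation, 1 rose and 1 fell. Scd2, a stearoyl-CoA desaturase and SREBP target, had 7.29 ± 2.79 RPKM in old mice, against 17.6 ± 6.00 RPKM in young mice and fell by 1.18 ± 0.26 (adjusted p = 0.00815), and by 0.55 on the deposited scaling (adjusted p = 0.0485). Acsl4, which activates arachidonic acid, rose by 1.31 ± 0.14 (adjusted p = 0.000317), with 81.2 ± 12.04 RPKM in old mice, against 32.1 ± 4.62 RPKM in young mice.

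Of 8 genes that use isoprenoids, 1 rose, the geranylgeranyl transferase subunit Rabggtb (0.60 ± 0.14, limma, adjusted p = 0.012), and 0 fell, with 1 lower at an unadjusted p under 0.05 by limma and by limma-voom. Rabggtb was not called with reads thinned (adjusted p = 0.055) or without the 2 shallowest young libraries (0.0697). Of 11 genes of lipoprotein uptake, 2 rose and 1 fell. Dab2, an adaptor of receptor endocytosis, rose by 1.84 ± 0.12 (adjusted p = 1.86e-05), and the receptor Vldlr had 0.55 ± 0.18 (adjusted p = 0.0498), a call lost in 7 of 8 fits that dropped a library and with limma-voom (0.0513). Of 11 genes of sterol transfer and esterification 1 rose and 1 fell. Tmem97, which binds Npc1, rose by 0.47 ± 0.12 (adjusted p = 0.0165) but was not called with reads thinned (0.184) or without the 2 shallowest young libraries (0.107). The sterol carrier Scp2 fell by 0.79 ± 0.10 (adjusted p = 0.000798), with 11.01 ± 0.232 RPKM in old mice, against 19.8 ± 1.39 RPKM in young mice. The remaining 9 were not called.

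Of 6 tested LXR targets and efflux partners, lipoprotein lipase, Lpl, fell by 0.82 ± 0.14 (limma, adjusted p = 0.00273) and 5 were not called. All 3 tested oxysterol and bile acid enzymes were uncalled, with 0 at an unadjusted p under 0.05 in either direction by limma and by limma-voom. Among 6 other sterol enzymes and related genes 1 rose and 1 fell. The mitochondrial thiolase Acat1 fell by 0.44 ± 0.12 (adjusted p = 0.0196), and was not called with TMM over the tested genes (0.0734), with reads thinned (0.0574) or in 4 of 8 fits that dropped a library.

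On the deposited scaling the calls of Scp2 (-0.14, limma, adjusted p = 0.504) and Lpl (-0.17, 0.425) were lost, and those of Mbtps1 (0.25, 0.27) and Acat1 (0.24, 0.321) were lost with a change of sign. The strongest gene of each of these lists was not called, apart from Acsl4. Apoe, the apolipoprotein that accepts exported cholesterol, averaged 362 ± 10.9 RPKM in old mice, against 448 ± 146 RPKM in young mice (-0.26 ± 0.19, limma, adjusted p = 0.356). The fold changes of the others were 0.09 for Pgrmc1, 0.25 for Ggps1, 0.11 for Lrpap1, 0.24 for Osbpl9, -0.33 for Cyp39a1 and 0.05 for Lbr.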

How the data were processed

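Per the labels' protocols, 10 ng of RNA of sorted cells was reverse-transcribed with oligo(dT) priming and sequenced in 101-base paired reads. The authors deposited RPKM, and the submitters' processing notes name mm10, GRCm38 and, among tools, STAR, Trim Galore, Subread featureCounts and edgeR, without versions or settings. Reads were recovered from the deposited values of the 24630 genes once values standing in for zeros were set aside. With the annotated gene length, 18832 genes came out whole (tolerance 0.003). For 4565 others the smallest multiple that gave whole numbers was taken, so their reads are known only up to a common factor. Another 64 genes had reads in 1 library only, which were set to 1, and 1169 had no read. The library totals are sums of these reads. RPKM was rescaled to library totals and its log2(RPKM + 1) compared between ages, with no covariate, in R 4.3.3 with limma 3.58.1, for genes averaging 5 RPKM or more. limma-voom was added after seeing the data. Alternatives were the deposited scaling, TMM, other filters and pseudocounts, random thinning of reads to equal totals, a replicate block and leaving out libraries. The fits were tested on simulated data. Each p-value compares 4 animals with 4. Coordinates are from GENCODE M21. The members, lists and tests were chosen with earlier results of these data known. From the other lists, genes past the threshold and the gene with the highest mean are named. Some genes counted in these lists are not reported here by name. Deviations of same-numbered old and young libraries had correlations from -0.23 to 0.38, the highest for replicate 3. Whether the replicate numbers stand for any shared handling of libraries was not tested.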

Additional observations from a re-analysis of the deposited data

Results flagged for a closer look

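In 5 of 60 groups of 4 libraries (30 genes at 2 ages), 1 library lay far from the other 3, where chance gives about 1 in 20. Old library 3 was high for Sc5d (14.0 RPKM, against 8.47 to 9.01 in the other old libraries) and old library 1 for Insig1 (13.1 RPKM, against 8.75 to 9.36). Young library 3 was high for Cyp51 (80.6 RPKM, against 35.2 to 42.1 in the other young libraries), Fdft1 (30.4 RPKM, against 12.8 to 14.7) and Sqle (50.4 RPKM, against 23.7 to 26.6). Young library 3 was also the deepest young library, with 6.56 M reads in genes. The part of depth in these values was not tested.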

How the results depend on the processing

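Over all 5703 tested genes, 704 rose (12.3%) and 714 fell (12.5%). The deposited scaling gave 3882 higher (68.1%) and 64 lower genes (1.12%). Of the 30 genes, 19 were tested, and 6 were higher and 0 lower there, against 0 and 7 on library totals. A mean of at least 1 RPKM gave 2279 lower genes (20.5% of 11096), and 11 lower of the 28 then tested among the 30. A mean of at least 10 gave 384 lower genes. No filter gave 9422 lower genes (40.2% of 23461) and 14 lower of the 30. Leaving out 1 library gave 473 to 810 higher and 469 to 818 lower genes, and 5 to 8 lower of the 30. The deposited scaling turned Srebf1 to 0.46 and Nr1h2 to 0.52, both called higher. Pseudocounts of 0.1 and 5, TMM over the tested genes, limma without trend and limma-voom each left 7 of the 30 lower, with 557 to 743 lower genes in all. Thinned reads left 5 of the 30 lower, with 552 lower genes in all. With the replicate block 7 of the 30 were lower, with 635 higher and 656 lower genes in all. The main fit did not use the replicate numbers. The cause of these differences was not tested. The planned count models were not run, because the deposited unit is RPKM. Young libraries hold as few as 5 reads for Tm7sf2 and 10 for Nr1h3, which limits the weakest genes.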
